A study of Mus musculus with 6 samples.

Results

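PPARs, LXRs and RXRs are nuclear receptors, transcription factors that are switched by small lipid ligands. PPARs respond to fatty acids and their derivatives and LXRs to oxysterols, and both bind DNA as pairs with an RXR. PGC-1α and PGC-1β, encoded by Ppargc1a and Ppargc1b, are coactivators that do not bind DNA themselves and raise transcription by the receptors they dock on. Through their target genes these proteins control fatty acid oxidation, lipid storage, lipogenesis and cholesterol export in many tissues.

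The 10 genes described here, 8 receptor genes and 2 coactivator genes, were taken by symbol from 48967 genes with summed counts. RNA was measured in wild-type 2-cell embryos (genotype wt, strain F1 (C57Bl/10 X CBA/H)), in 3 control and 3 delipidated libraries, and the comparison asks which transcripts differ after the removal of lipid droplets at the zygote stage. Delipidated zygotes were exposed to cytochalasin B, centrifuged in M2 medium and in a hyperosmotic sucrose solution, and freed of the gathered droplets through a laser opening in the zona pellucida. Control zygotes kept their lipid. Embryos of both groups were then kept in KSOM without fatty acids, from 0.5 to 2.0 dpc according to the labels (day 2). The results text of the paper gives a shorter time, counted from delipidation. Control and delipidated embryos shared the same collection from hormonally stimulated donors and were allocated at random. Each library was a pool of 3 embryos, so single embryos cannot be compared, and p-values measure the spread between pools of that collection. A sham procedure for control zygotes is not described in the sources used here, so lipid removal and the handling it required cannot be told apart.

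The deposited values were raw counts for exonic parts, the pieces into which overlapping exons of a gene were divided, and the parts of each gene were added up. The counts on genes were 12164963, 16165958 and 12980787 in control replicates 1, 2 and 3 and 20059460, 16332103 and 14683741 in delipidated replicates 1, 2 and 3. At least 1 count was found for 22855, 22437 and 20582 genes in the control libraries and for 17091, 19408 and 20158 genes in the delipidated libraries. Every delipidated library therefore held fewer detected genes than every control library, and the part of this difference in the values of genes with few counts was not tested.

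The labelled stage was checked with marker lists. Of 15 genes activated at the 2-cell stage, 14 had counts in all 6 libraries, the exception being Duxf3, named after its values were seen. Together they reached 635, 274 and 593 CPM (counts scaled to library size, with edgeR's TMM factors) in the control libraries and 430, 548 and 683 CPM in the delipidated libraries, with Usp17lb, of a deubiquitinase family, the most abundant per length. All 8 maternal oocyte transcripts were counted in every library, with a summed level of 847 to 1451 CPM, and Oosp1, an oocyte-secreted protein gene, was the most abundant. Markers of both kinds were thus present in each pool.

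Cumulus cells had been removed with hyaluronidase before culture, and markers of other cell types were low. The 12 cumulus and granulosa cell markers summed to 5.74, 10.3 and 66.7 CPM in control against 1.38, 9.77 and 11.9 CPM in delipidated libraries, with Tnfaip6 the most abundant per length and Foxl2 and Ptx3 at 0 in all libraries. Control replicate 3 stood out through Cyp11a1, a steroidogenic enzyme gene with 653 counts there and 4 or fewer in each other library. Cyp11a1 did not pass the filter, and without one it was called lower in edgeR's test (adjusted p = 3.14e-13) on the counts of that library. The 9 leukocyte markers, led by Cd74, summed to 19.1, 11.5 and 10.5 CPM in control against 6.67, 8.97 and 10.2 CPM in delipidated libraries. The 8 stromal markers, led by Pdgfra, summed to 7.0, 10.1 and 7.60 CPM in control against 1.93, 5.96 and 4.31 CPM in delipidated libraries. The sums of the leukocyte and stromal lists were thus lower in every delipidated library, and no gene of either list was at 0 in all 6. In such pooled RNA, fewer cells of a type and less RNA per cell cannot be told apart. The 5 oviduct epithelium markers, led by Ovgp1, lay between 0.506 and 12.6 CPM in sum, with overlapping groups. The part of these markers in the values below was not tested.

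Among the receptors and coactivators, levels spanned a wide range. Per kb of summed exonic parts, the scale on which genes can be compared, the mean over 6 libraries was 39.9 CPM per kb for Nr1h2, 14.2 for Ppard, 2.88 for Rxra, 1.99 for Ppargc1b, 1.64 for Pparg, 1.39 for Nr1h3, 1.39 for Ppara, 1.21 for Rxrb and 0.10 for Ppargc1a, while Rxrg had no counts. The ranges over libraries did not overlap between Nr1h2 and Ppard, nor between Ppard and Rxra. From Rxra downwards the ranges of neighbours in this order overlapped, although Rxra exceeded Ppargc1b in 6 of 6 libraries. Single libraries weighed on the low levels, which were 1.05 CPM per kb for Pparg without delipidated replicate 1, 0.816 for Nr1h3 without control replicate 2 and 0.0236 for Ppargc1a without control replicate 3. The lead of Nr1h2 over Ppard depended on which exonic parts were used. From parts of at least 150 bases alone, a choice made after seeing the data, the level was 10.0 ± 2.30 CPM per kb for Nr1h2 and 10.5 ± 2.80 for Ppard (SD, n = 6). The order of Rxra and Ppargc1b turned as well, at 1.56 ± 0.616 CPM per kb for Rxra and 1.74 ± 0.744 for Ppargc1b (SD, n = 6). Nr1h2 has 50 parts over 3354 bases, of which only 4 are that long, and 2 of these, parts 15 and 39, had 61 and 30 counts over all libraries. A read may be counted in several parts, as parts 6 and 7 of Nr1h2, neighbours of 2 and 4 bases, held 113 counts each in delipidated replicate 1. Nr1h2 and Ppard lay well above the other 8 genes by either measure, and the order within each of these pairs is not settled.

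**Figure D1:**
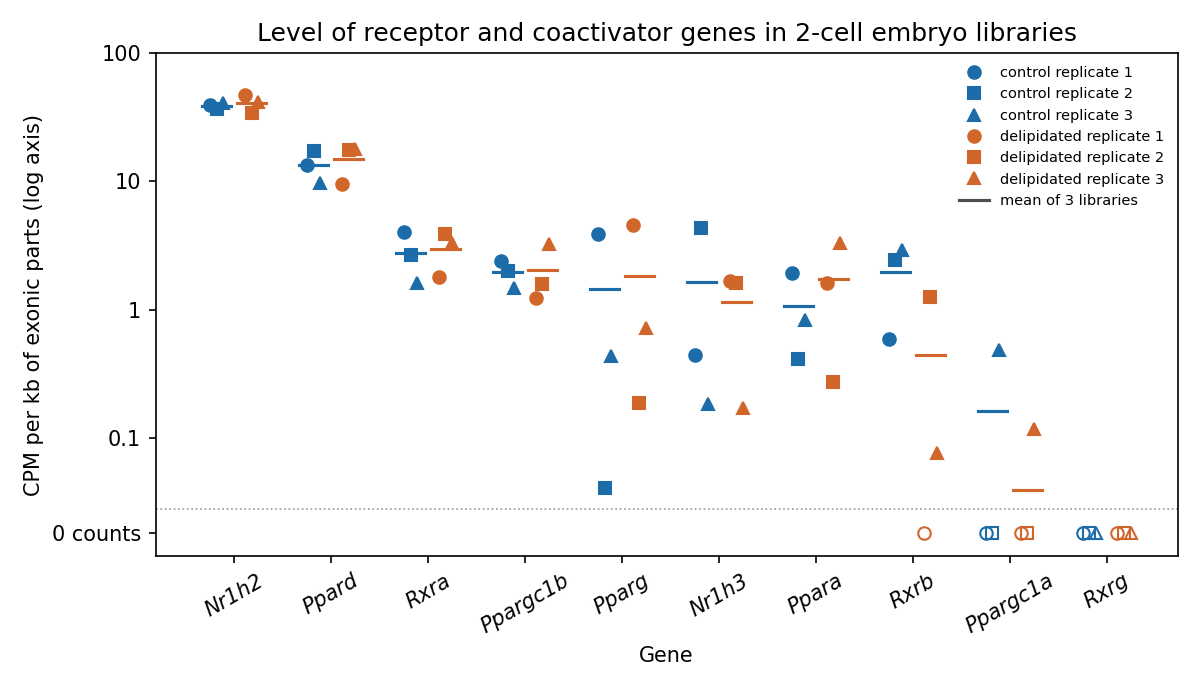
Level of each gene in CPM per kb of exonic parts (log axis) in 3 control and 3 delipidated libraries, with a line at the mean of each group; open symbols below the dotted line mark 0 counts. Nr1h2 and Ppard lie above all other genes in every library, whereas Pparg, Nr1h3, Ppara and Rxrb are scattered within both groups.

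Of the PPARs, Ppard carried most of the transcript. Ppard encodes PPARδ, a broadly expressed receptor for fatty acids, and is annotated on GRCm38 at chromosome 17, 28232700 to 28301474, forward strand (ENSMUSG00000002250). Its summed counts were 738, 1324 and 586 in control against 900, 1317 and 1164 in delipidated libraries, or 62.3, 80.1 and 44.5 CPM against 44.4, 80.9 and 82.2 CPM. Control replicate 3 and delipidated replicate 1 were alike and low, and the groups overlapped. As a share of the CPM per kb of the 3 PPAR genes, Ppard made up 85.2 ± 14.0% in control and 79.9 ± 18.4% in delipidated embryos (SD, n = 3 each), and between 60.8% and 97.5% in single libraries.

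Ppara and Pparg were counted in every library but unevenly. Ppara encodes PPARα, a main activator of fatty acid oxidation genes in liver (ENSMUSG00000022383, chromosome 15). Its counts were 88, 26 and 42 in control against 125, 17 and 178 in delipidated libraries, or 7.42, 1.57 and 3.19 CPM against 6.17, 1.04 and 12.6 CPM. The spread within the delipidated group, from the lowest to the highest of all 6 libraries, was wider than the distance between the group means. Pparg encodes PPARγ, the receptor that drives fat cell formation (ENSMUSG00000000440, chromosome 6, 115360951 to 115490399, forward strand). Its counts were 135, 2 and 17 in control against 274, 9 and 30 in delipidated libraries, or 11.4, 0.121 and 1.29 CPM against 13.5, 0.553 and 2.12 CPM. Replicate 1 of each group was the high library, and counts ran from 2 to 274, while the group means of 4.27 ± 6.20 and 5.40 ± 7.08 CPM (SD, n = 3 each) differed by less than either SD.

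Of the LXRs, Nr1h2 predominated. Nr1h2 encodes LXRβ, the more broadly expressed LXR, on the reverse strand of chromosome 7 from 44549616 to 44553951 (ENSMUSG00000060601). Its counts were 1556, 2041 and 1793 in control against 3223, 1851 and 1969 in delipidated libraries, or 131, 123 and 136 CPM against 159, 114 and 139 CPM. By these sums it was the steadiest of the 10 genes, with a coefficient of variation of 11.5% over the 6 libraries beside a median of 44.2% over all genes tested. The median level of all genes tested was 3.47 CPM per kb, against 39.9 for Nr1h2, so this comparison is between unlike levels. The rank of Nr1h2 as steadiest did not hold for the exonic part with most counts, at 8.50 ± 2.75 CPM for Nr1h2 and 13.7 ± 3.71 CPM for Ppard (SD, n = 6), where Ppard varied less in proportion. Nr1h3 encodes LXRα, known from liver, fat and macrophages, on the reverse strand of chromosome 2 from 91184061 to 91202834 (ENSMUSG00000002108). It had 13, 176 and 6 counts in control against 84, 65 and 6 counts in delipidated libraries, or 1.10, 10.6 and 0.456 CPM against 4.15, 3.99 and 0.424 CPM. Replicate 3 was lowest in both groups, and control replicate 2 was the highest of all 6 libraries. All 25 exonic parts of Nr1h3 are listed under an identifier joined with the overlapping gene Gm13783, so its counts rest on the assignment of these parts. Of the CPM per kb of both LXR genes, Nr1h2 made up 96.0 ± 5.59% in control and 97.2 ± 2.13% in delipidated embryos (SD, n = 3 each).

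Of the RXRs, the shared partners of these receptors, Rxra was counted in every library, Rxrb in 5 of 6 and Rxrg in 0 of 6. Rxra (ENSMUSG00000015846, chromosome 2, 27676440 to 27762957, forward strand) had 261, 239 and 116 counts in control against 200, 343 and 255 counts in delipidated libraries, or 22.0, 14.5 and 8.82 CPM against 9.88, 21.1 and 18.0 CPM. Rxrb (ENSMUSG00000039656, chromosome 17, 34031812 to 34038399, forward strand) had 26, 148 and 141 counts in control against 0, 76 and 4 counts in delipidated libraries, or 2.19, 8.95 and 10.7 CPM against 0, 4.67 and 0.282 CPM. The groups overlapped because control replicate 1 lay below delipidated replicate 2, and the 0 counts of delipidated replicate 1 allow up to 0.148 CPM, taking 3 counts as the limit for a count of 0. Reads amplified by PCR without molecular identifiers are not independent molecules, so such limits cover counting error only. Rxrg, known from muscle and brain (ENSMUSG00000015843, chromosome 1), had 0 counts on all of its 20 parts in each library, which allows at most 0.148 to 0.253 CPM. Rxra accordingly made up 87.2%, 52.2% and 35.8% of the RXR transcript per kb in control against 100%, 75.3% and 97.7% in delipidated libraries, with overlapping groups.

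Of the coactivators, Ppargc1b was counted throughout and Ppargc1a hardly at all. Ppargc1b (ENSMUSG00000033871, chromosome 18) had 114, 132 and 77 counts in control against 99, 103 and 184 counts in delipidated libraries, or 9.62, 7.98 and 5.85 CPM against 4.89, 6.33 and 13.0 CPM. Ppargc1a, the cold- and fasting-induced relative (ENSMUSG00000029167, chromosome 5), had 42 counts in control replicate 3, 11 in delipidated replicate 3 and 0 in the other 4 libraries. The 42 and 11 counts lay on 4 and 2 of its 22 parts, so the gene was near the limit of detection in both groups.

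Of the 10 genes, 8 passed edgeR's filter on low counts and were tested among 16020 genes with the quasi-likelihood test, and Ppargc1a and Rxrg were not tested. Calls required both a log2 fold change beyond 1 in size and an edgeR p-value under 0.05 after adjustment over all genes by the method of Benjamini and Hochberg. Over all genes 0% were called, 0 of 16020, and 2.89% had an unadjusted p-value under 0.05 (463 genes, 184 higher and 279 lower in delipidated embryos), while DESeq2's Wald test without a filter called 9 genes higher and 40 lower. Of the 8 receptor and coactivator genes tested, 0 were called and 0 had an unadjusted p-value under 0.05 in edgeR's test. The groups overlapped for all 8 as well, where delipidated libraries lay entirely above control libraries for 3.81% of all genes tested and entirely below them for 5.05%. DESeq2's Wald test without a filter called 0 of the 10 genes, but Rxrg, without counts, was not tested there either.

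The intervals differed in what they allow. For Nr1h2 the log2 fold change was 0.08 ± 0.22 (SE), and its 95% interval reached from 0.753-fold to 1.47-fold. For Ppard it was 0.15 with a standard error of 0.33, an interval from 0.672-fold to 1.83-fold. Changes of the size of the calling threshold thus lay outside both intervals, for Nr1h2 from the summed parts and for Ppard with all 6 libraries together. From its exonic part with most counts alone, Nr1h2 had a less precise value of 0.03 ± 0.44 (SE). The value of Ppard was 0.37 ± 0.37 (SE) without control replicate 2 and 0.39 ± 0.32 (SE) without delipidated replicate 1. The interval was 0.512-fold to 2.28-fold for Rxra, whose log2 fold change was 0.11, and 0.42-fold to 2.52-fold for Ppargc1b, at 0.04. Those of Pparg (0.165-fold to 9.82-fold), Nr1h3 (0.112-fold to 4.39-fold) and Ppara (0.406-fold to 6.50-fold) were wider still, and like that of Ppargc1b they included both increases and decreases of more than 2-fold. The adjusted p-value of each of these genes was 1.00 in edgeR's test, and exact two-sided permutation tests over the 6 libraries gave p from 0.6 for Ppard and Pparg to 0.9 for Ppargc1b, where 3 against 3 libraries cannot go below 0.1.

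Rxrb had the largest difference of the 8 genes tested, with a log2 fold change of -2.14, a standard error of 1.38 and a 95% interval from 0.0279-fold to 1.84-fold. Its unadjusted p-value was 0.148 in edgeR's test, its adjusted p-value 1.00 and the exact two-sided permutation p 0.2. The value depended on single libraries: the log2 fold change was -5.71 without delipidated replicate 2 (edgeR unadjusted p = 0.00327) and between -2.57 and -1.55 without each of the other libraries in turn, and -0.58 from its exonic part with most counts, and the adjusted p-value ranged from 0.719 to 1.00 over all alternatives. The lowest, 0.719, came from edgeR's test without a filter on low counts, where the unadjusted p-value was 0.0319. The summed stromal and leukocyte markers and the number of detected genes were lower in the delipidated libraries too, and their part in this difference was not tested. Without control replicate 2 the log2 fold change of Nr1h3 went from -0.51 to 1.87, and without delipidated replicate 1 or control replicate 1 that of Pparg went from 0.35 to -1.67 or 2.96. It was also below 0 without control replicate 2 (-0.23) or 3 (-0.08), so 1 library decided the direction or size for these genes. Single libraries also turned the sign of the small differences of the other genes, to -0.17 for Ppara without delipidated replicate 3, -0.04 for Ppard without control replicate 3 and -0.04 for Nr1h2 without delipidated replicate 1. For Rxra the value was -0.16 without control replicate 3 and -0.12 without delipidated replicate 2, and for Ppargc1b -0.13 without control replicate 3 and -0.48 without delipidated replicate 3.

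**Figure D2:**
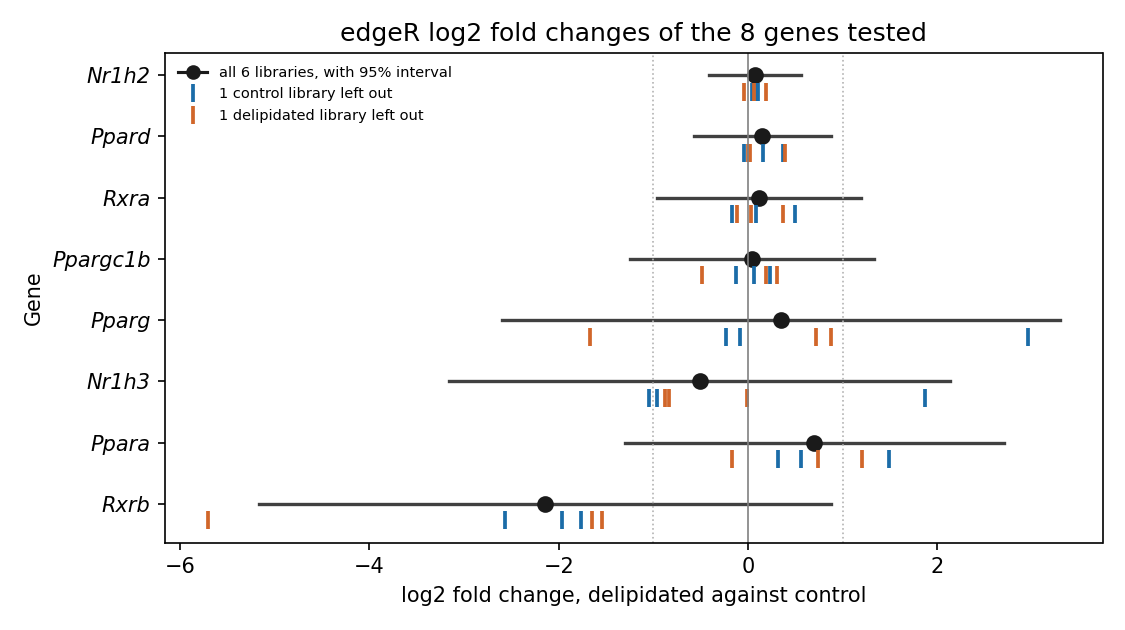
Log2 fold change of delipidated against control embryos for the 8 genes tested (points, edgeR) with 95% intervals (lines), and the values with 1 library left out (ticks, coloured by the group of that library); dotted lines mark a log2 fold change of 1 in either direction. All 8 intervals include 0, and the ticks of Pparg, Nr1h3 and Rxrb spread furthest.

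The exonic parts show where along each gene the counts lay. For Nr1h2, 33 of 50 parts had counts in all 6 libraries and 0 parts had none in all. For Ppard, 11 of 20 parts were counted in all libraries. The 4 parts without any count were parts 6 to 9, from 28271708 to 28273163. In the GENCODE annotation they belong to transcripts Ppard-204 and Ppard-206, of which only Ppard-206 continues into coding parts downstream. Part 5, from 28237012 to 28237095, which follows the upstream first exon, had 56, 88 and 72 counts in control against 87, 114 and 76 counts in delipidated libraries. At the 5′ end the counts of Ppard thus lay on the upstream exons, and parts 6 to 9 had none in either group. The part with the most counts was part 20 at the 3′ end, with 1275 over all libraries.

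Pparg and Rxra have several annotated starts as well. The first 5 parts of Pparg, from 115360951 to 115366079, and part 11, from 115422066 to 115422192, which holds the start codon of transcript Pparg-201, had 0 counts in all 6 libraries. Parts 6 and 7 of Pparg, shared noncoding exons from 115383679 to 115383743, had 20 counts each in control replicate 1 and 7 each in delipidated replicate 3. In delipidated replicate 1, which had the highest Pparg level, 0 counts lay upstream of part 15 and parts 15 to 18 held 39, 40, 40 and 40 counts and parts 20 and 21 held 71 and 44, so its counts lay on the 3′ portion of the gene. For Rxra, part 5, from 27677387 to 27677460, with the start codon of Rxra-201 and Rxra-206, had 7, 7 and 0 counts in control against 0, 15 and 9 counts in delipidated libraries. Parts 6 and 7, the first exons of Rxra-202 and Rxra-203, had 3 and 3 counts in control replicate 1, 10 and 9 in control replicate 3 and 0 elsewhere. Counts thus lay on first exons at more than 1 annotated start of Rxra, at levels too low to compare. Counts per part hold no reads across exon junctions, so they cannot show which starts were used.

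Rxrb and Nr1h3 were covered in patches that differed between libraries. Rxrb had counts on 5, 8 and 17 of 32 parts in the control and on 0, 7 and 2 parts in the delipidated libraries. Control replicate 3 held 16, 16 and 16 counts on parts 16 to 18, where each other library had 0, and control replicate 2 held 35 counts each on parts 26 and 29. Nr1h3 had counts on 3, 17 and 2 of 25 parts in the control and on 2, 8 and 2 parts in the delipidated libraries, and in delipidated replicate 1 its 84 counts lay on parts 23 and 24 alone, 42 on each. Where a read was counted in several neighbouring parts, these sums exceed the number of reads and are less precise than their size implies.

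**Figure D3:**
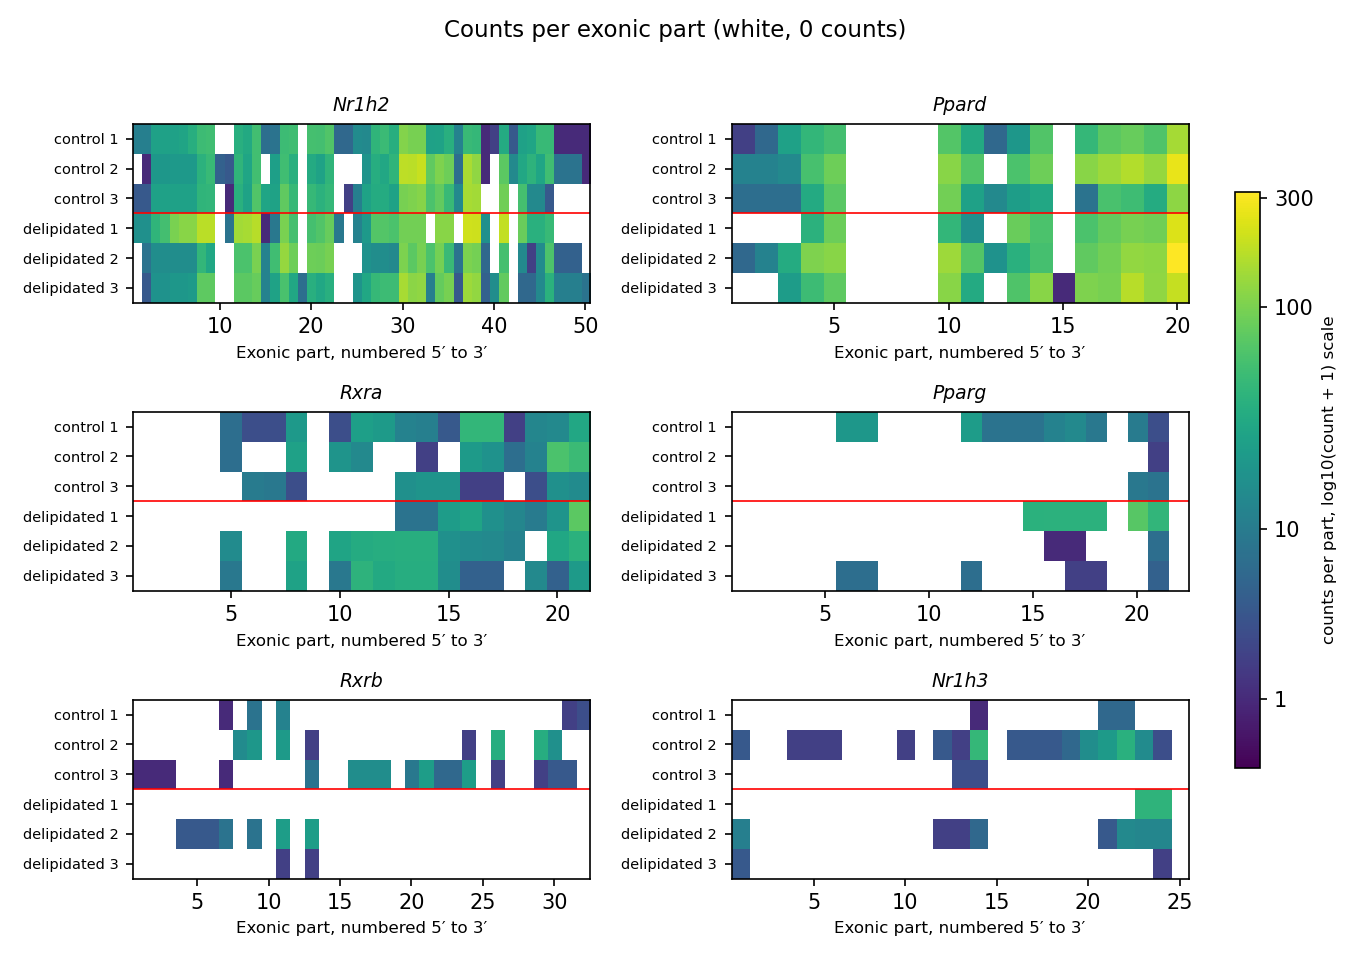
Counts per exonic part of 6 genes in each library (colour, log10(count + 1) scale; white, 0 counts), with parts numbered from the 5′ to the 3′ end and a red line between control and delipidated libraries. Most parts of Nr1h2 and Ppard have counts in all libraries, parts 6 to 9 of Ppard have none, and Pparg, Rxrb and Nr1h3 are covered in patches, with 0 counts of Rxrb in delipidated replicate 1.

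The regions around the annotated starts differed in base composition. RefSeq promoter windows of 300 bases on GRCm38.p6 were found for 9 of the 10 genes, 15 windows in all, and Ppargc1b was not among them. These windows also hold bases after the RefSeq start. The window at the start of Rxra-201 held 55 CG dinucleotides, those of Rxrb 37 and 47 and the first of Pparg 44, beside a median of 7 over 32851 windows. The windows of Ppara, Ppard and Nr1h2 held 30, 27 and 19, and that of Ppargc1a 5. The remaining windows held 13 and 2 for Pparg, 1 for Rxra, 10 and 8 for Nr1h3 and 13 and 9 for Rxrg. The hexamer AGGTCA, the core element that these receptors bind, was searched on both strands and found in 4 of 15 windows, of Pparg, Rxra and Rxrg, beside 16.3% of all windows. Direct repeats of 2 copies with a spacer of 1 base (DR1, the PPAR element) or 4 bases (DR4, the LXR element) occurred in 0 of the 15 windows and in 0.0396% and 0.0152% of all windows. A match describes these letters only. Exonic parts overlapping the window of Nr1h2 had summed counts of 74, 41 and 60 in control against 133, 40 and 40 in delipidated libraries. Those overlapping the window of Ppard had 34, 38 and 21 against 0, 52 and 23. A read may be counted in several of these short parts, so the sums can exceed the number of reads. Exonic parts overlapping the window at the start of Rxra-201 and the first window of Rxrg had 0 counts in all 6 libraries. The bases of these 4 windows that lie before the RefSeq start and in no annotated exon are shown, to set windows with counts (Nr1h2 and Ppard) beside windows without (Rxra-201 and Rxrg), although part 5 of Rxra, further along the same exon, had counts in 4 libraries. They are written 5′ to 3′ on the strand of the gene with CG in capitals, for Nr1h2 at chr7:44553966-44554215 (reverse strand), Ppard at chr17:28232504-28232699, Rxra at chr2:27676951-27677200 and Rxrg at chr1:167598112-167598361 (forward strand).
Nr1h2: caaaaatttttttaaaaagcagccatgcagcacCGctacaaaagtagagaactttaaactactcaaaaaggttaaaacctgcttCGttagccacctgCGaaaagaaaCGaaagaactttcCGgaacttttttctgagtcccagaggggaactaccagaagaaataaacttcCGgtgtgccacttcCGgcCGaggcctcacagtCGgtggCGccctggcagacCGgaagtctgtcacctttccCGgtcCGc
Ppard: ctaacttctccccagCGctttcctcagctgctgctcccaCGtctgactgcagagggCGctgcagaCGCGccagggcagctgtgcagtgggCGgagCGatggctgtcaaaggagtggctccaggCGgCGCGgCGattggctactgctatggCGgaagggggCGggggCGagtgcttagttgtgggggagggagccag
Rxra: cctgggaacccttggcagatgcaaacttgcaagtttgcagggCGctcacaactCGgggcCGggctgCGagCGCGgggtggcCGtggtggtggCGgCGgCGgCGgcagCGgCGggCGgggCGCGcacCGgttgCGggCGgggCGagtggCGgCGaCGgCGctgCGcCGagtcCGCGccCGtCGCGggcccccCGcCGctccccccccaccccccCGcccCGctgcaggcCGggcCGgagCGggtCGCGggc
Rxrg: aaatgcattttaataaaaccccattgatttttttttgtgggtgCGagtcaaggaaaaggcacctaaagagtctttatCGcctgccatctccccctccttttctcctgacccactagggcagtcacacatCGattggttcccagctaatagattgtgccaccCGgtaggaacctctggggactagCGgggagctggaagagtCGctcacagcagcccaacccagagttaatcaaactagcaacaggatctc
The 250 bases of Rxra hold 40 CG dinucleotides, the 196 bases of Ppard 14, the 250 of Nr1h2 13 and the 250 of Rxrg 6.

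RXR also pairs with receptors for retinoic acid, thyroid hormone and other ligands. Of 11 such genes, 7 were tested, 0 were called and 0 had an unadjusted p-value under 0.05 in edgeR's test, with a median log2 fold change of -0.56 beside -0.00073 over all genes tested. Only 5 of the 11 had counts in all libraries, and the median was -0.061 when a mean count of at least 50 was required, so the median rests on genes with few counts. The retinoic acid receptor gene Rarg reached 55.5 ± 16.9 CPM in control and 55.1 ± 24.7 CPM in delipidated libraries, the thyroid hormone receptor gene Thra 37.6 ± 2.83 and 40.3 ± 2.28 CPM, and Rara 22.8 ± 2.60 and 21.1 ± 4.0 CPM (SD, n = 3 each). The smallest p-values belonged to Thrb, with a log2 fold change of -0.84 ± 0.80 (SE), and Rarb, with -1.05 ± 1.11 (SE). The farnesoid X receptor gene Nr1h4 and the vitamin D receptor gene Vdr, named after their values were seen, had at most 15 counts in any library. The libraries of both groups overlapped for all 11 genes.

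Several general coactivators and corepressors of nuclear receptors were far more abundant per length than the PGC-1 genes. All 21 genes of this list were tested, 0 were called in edgeR's test, and 0 had an unadjusted p-value under 0.05 with a higher and 1 with a lower level in delipidated embryos. The median log2 fold change was -0.052. Per kb the highest levels were those of the coactivator gene Ncoa3 (114 CPM per kb), the acetyltransferase gene Crebbp (87.4) and Gps2 (65.4), a subunit of the NCoR corepressor complex. Ncoa3 stood at 915 ± 70.3 CPM in control and 883 ± 39.8 CPM in delipidated libraries and Crebbp at 1172 ± 78.7 and 1195 ± 276 CPM (SD, n = 3 each). For Gps2 the log2 fold change was -0.79 ± 0.34 (SE) (edgeR unadjusted p = 0.0400, adjusted p = 1.00), from 133 ± 56.8 to 76.8 ± 20.5 CPM (SD, n = 3 each), with overlapping groups. Lpin1, a phosphatidate phosphatase that also acts as a coactivator of PPARα with PGC-1α, had 123, 80 and 85 counts in control against 37, 71 and 24 in delipidated libraries. Its libraries did not overlap, and its log2 fold change of -1.46 ± 0.74 (SE) did not pass the test (edgeR unadjusted p = 0.0723, adjusted p = 1.00). Of the 21 genes, libraries lay entirely lower in delipidated embryos for 1 and entirely higher for 0. Over all genes tested these shares were 5.05% and 3.81%.

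Of 38 target genes of PPARs, 23 passed the filter. In edgeR's test 0 were called, 0 had an unadjusted p-value under 0.05 with a higher and 1 with a lower level, and the log2 fold change was positive for 5 and negative for 18 genes, beside 8004 and 8016 over all genes tested. The median was -0.23. Among the most abundant per kb were the lipid droplet coat gene Plin2 (9.98 CPM per kb) and the mitochondrial acyl-CoA dehydrogenase gene Acadm (9.41), at 38.9 ± 7.20 and 39.2 ± 12.4 CPM in control and 31.2 ± 13.2 and 34.4 ± 7.46 CPM in delipidated libraries (SD, n = 3 each). Acsl1, a long-chain acyl-CoA synthetase gene, had 828, 752 and 731 counts in control against 366, 302 and 551 in delipidated libraries, without overlap, and a log2 fold change of -1.18 ± 0.38 (SE) (edgeR unadjusted p = 0.00991, adjusted p = 1.00). Of the 23 genes tested, libraries lay entirely lower for 1 and entirely higher for 0, beside 5.05% and 3.81% of all genes tested. The lipid droplet coat gene Plin5 had a log2 fold change of -2.85 ± 1.49 (SE), on at most 95 counts. The list together came to 348, 409 and 388 CPM in control against 341, 344 and 301 CPM in delipidated libraries, without overlap. Without Acsl1, a comparison chosen after its values were seen, the groups overlapped at 278, 363 and 332 against 323, 325 and 262 CPM. Leaving out any of 6 single genes, also tried after the values were seen, gave such an overlap, so the separation was narrow.

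Of 17 target genes of LXRs, 12 passed the filter, 0 were called, and 1 had an unadjusted p-value under 0.05 in each direction in edgeR's test, with a median log2 fold change of -0.11. Both belong to genes for lipogenic transcription factors: Mlxipl, encoding ChREBP, had a log2 fold change of 1.35 ± 0.31 (SE) (edgeR unadjusted p = 0.00114), and Srebf1, encoding SREBP-1, one of -1.47 with a standard error of 0.66 (edgeR unadjusted p = 0.0465), the adjusted p-value of each being 1.00. Without a filter on low counts Mlxipl was called higher, with an adjusted p-value of 0.0303 in DESeq2's test and 0.00426 in edgeR's, and its adjusted p-value ranged from 0.00426 to 1.00 over all alternatives. Mlxipl stood at 53.5 ± 9.70 and 136 ± 54.5 CPM and Srebf1 at 8.12 ± 1.84 and 2.92 ± 1.00 CPM in control and delipidated libraries (SD, n = 3 each), both without overlap. The desaturase gene Scd1 stood at 70.2 ± 19.7 CPM in control and 71.0 ± 26.1 CPM in delipidated libraries, and the apolipoprotein gene Apoe at 22.3 ± 15.9 and 33.4 ± 6.44 CPM (SD, n = 3 each). The cholesterol exporter gene Abcg5 had no counts, and Abca1, an exporter gene named after its values were seen, had 7, 0 and 228 counts in control against 93, 15 and 0 in delipidated libraries. Of the 12 genes tested, the log2 fold change was positive for 5 and negative for 7, and the 2 with the smallest p-values went in opposite directions. Libraries lay entirely higher in delipidated embryos for 1 of them and entirely lower for 1, beside 3.81% and 5.05% of all genes tested. The list together came to 219, 302 and 292 CPM in control against 403, 392 and 259 CPM in delipidated libraries, with overlapping groups.

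All 12 partner and target genes of PGC-1 were tested and had counts in all libraries, 0 were called and 0 had an unadjusted p-value under 0.05 in edgeR's test, with a median log2 fold change of 0.042. Gabpa, a subunit of nuclear respiratory factor GABP, was the most abundant (77.5 CPM per kb), followed by the mitochondrial transcription factor gene Tfb2m (55.6) and Yy1 (46.2). Gabpa had 501 ± 45.9 CPM in control and 380 ± 60.1 CPM in delipidated libraries (SD, n = 3 each) without overlap, and a log2 fold change of -0.40 ± 0.18 (SE) (edgeR unadjusted p = 0.0504, adjusted p = 1.00). Of these 12 genes, libraries lay entirely lower for 1 and entirely higher for 0, beside 5.05% and 3.81% of all genes tested. Esrrg, encoding an orphan receptor that PGC-1 coactivates, had -0.61 with a standard error of 0.43.

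Genes that make, carry or break down ligands were sparsely counted. Of 22 such genes, 10 passed the filter and 3 (Lrat, Ch25h and Ptgs1) had no counts, and in edgeR's test 0 were called and 0 had an unadjusted p-value under 0.05, with a median log2 fold change of -0.12. Fabp5, a fatty acid carrier that delivers ligands to PPARδ, was the most abundant, at 59.2 ± 22.9 CPM in control and 66.3 ± 26.4 CPM in delipidated libraries, followed by the retinol dehydrogenase gene Rdh10 at 54.7 ± 9.80 and 56.2 ± 11.2 CPM (SD, n = 3 each). The retinoic acid carrier gene Crabp2 had a log2 fold change of -1.25 ± 0.74 (SE), and the retinal reductase gene Dhrs3 one of 0.78 ± 0.65 (SE). Both intervals included 0. The median log2 fold change was -0.01 for the 15 genes activated at the 2-cell stage and 0.12 for the 8 maternal transcripts, all tested. It was 0.03 for 3 cumulus and granulosa cell markers, -0.91 for 5 leukocyte markers, -1.46 for 3 stromal markers and 0.73 for 2 oviduct markers that passed the filter. These few markers depended on single libraries, the median ranging with 1 library left out from -2.73 to 0.079 for cumulus and granulosa cell, -1.22 to -0.34 for leukocyte, -7.32 to -1.65 for stromal and 0.11 to 1.29 for oviduct markers. In these marker lists, also with 0 genes called, the genes with an unadjusted p-value under 0.05 in edgeR's test were Usp17lb, with a log2 fold change of 0.64 ± 0.27 (SE), and the collagen gene Col1a1. Col1a1 had 11, 26 and 42 counts in the control and 0 in all delipidated libraries, which is at least 10.5-fold lower when 3 summed counts are allowed per library, although 1 read can add several counts.

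The genes most like the leading receptors over the 6 libraries were found by the root mean square difference in log2(CPM + 1), centred on each gene's mean, among 11359 other genes with a mean count of at least 50. For Nr1h2 these were Gm10704 (0.0614), the splicing factor gene Sf3b2 (0.0639) and Zfp820 (0.0649), where the median over all genes was 0.453. For Ppard they were Edem2 (0.0643), Gm21992 (0.0828) and Zfand3 (0.113), with a median of 0.562. For Rxra they were E330009J07Rik (0.0685), Mon1b (0.0726) and Lrp1 (0.133), with a median of 0.628. These values describe 6 libraries only.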

How the data were processed

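The deposited values were raw counts per exonic part and library, which the authors made, per their processing notes, with bcl2fastq 2.20, Trimmomatic 0.36, STAR 2.5.2b and featureCounts on mm10 from rRNA-depleted, stranded, paired-end libraries. Reads that span parts may be counted in each of them. Of 425461 parts, 33309 stood under joined identifiers, and 27968 of these were assigned where exons of 1 joined gene in GENCODE M21 overlapped them. Between 2.49% and 2.57% of the counts were left out.

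Genes were filtered with filterByExpr (minimum count 10, total 15), scaled by TMM and tested with the quasi-likelihood test of edgeR 4.0.16 in R 4.3.3, with Benjamini-Hochberg adjustment over 16020 genes. The biological coefficient of variation was 0.663. The edgeR fit was also run on simulated data, and the outcome is not given here. DESeq2 1.42.0, no filter, a stricter filter, a replicate block, each library left out and other sets of parts were alternatives. Tables and plots used pandas 2.3.3 and matplotlib 3.10.9 under Python 3.11.15.

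The genes and the lists (other partners of RXR, coactivators and corepressors, PPAR, LXR and PGC-1 targets, ligand supply, 2-cell stage, maternal, cumulus, leukocyte, stromal and oviduct markers) were chosen with earlier results of these data known. From each pathway list the text names genes called, otherwise the 2 with the smallest p-values, and the 3 with the highest CPM per kb. A gene that this rule names is not reported here. From marker lists it names the most abundant gene, those at 0 and those with an unadjusted p-value under 0.05, and the other genes that the rule takes from the 2-cell stage and maternal lists are left out. Other genes named were chosen after their values were seen.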

Additional observations from a re-analysis of the deposited data

How the results depend on the processing

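No receptor or coactivator gene was called under any alternative. Of 110 log2 fold changes recomputed for them, 96 kept their sign and 14 turned it. Over all genes, 9 were called higher and 40 lower with DESeq2 and no filter, and 5 and 25 with edgeR and no filter. Leaving out 1 library gave log2 fold changes from -0.17 to 1.49 for Ppara, -0.0444 to 0.39 for Ppard, -1.67 to 2.96 for Pparg, -0.48 to 0.30 for Ppargc1b, -0.0442 to 0.19 for Nr1h2, -1.04 to 1.87 for Nr1h3, -0.16 to 0.49 for Rxra and -5.71 to -1.55 for Rxrb. From the exonic part with most counts, that of Nr1h3 was 1.54, and with joined parts left out it had no value. The cause of these reversals was not tested.

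Libraries of the same replicate number had correlations of -0.133, 0.106 and 0.0651 in their deviations from the group means. Those of different numbers had correlations from -0.262 to 0.208. So few values cannot settle whether the numbers pair the samples. With the replicate block 0 genes were called, and the log2 fold change was -0.065 for Ppargc1b, 0.10 for Nr1h3, 0.90 for Pparg and -4.07 for Rxrb (edgeR unadjusted p = 0.0179, adjusted p = 1.00). The medians with the block were -0.12 for other partners of RXR, -1.59 for leukocyte and -4.66 for stromal markers.

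The level of Nr1h2 was 47.0 CPM per kb with joined and opposite-strand parts left out, which lowers the library totals. From parts of at least 150 bases, an alternative chosen after seeing the data, it was 10.0, and that of Rxra 1.56 CPM per kb. With a mean count of at least 50, the median log2 fold change was -0.061 for other partners of RXR and -5.45 for cumulus and granulosa cell markers, and with joined parts left out it was -4.67 for stromal markers. Leaving out 1 library gave medians from -0.73 to -0.17 for other partners of RXR, -0.53 to 0.085 for LXR targets, -0.11 to 0.13 for PGC-1 partners and targets, -0.50 to 0.43 for ligand supply, -2.73 to 0.079 for cumulus and granulosa, -1.22 to -0.34 for leukocyte and -7.32 to -1.65 for stromal markers. They ran from -0.35 to -0.13 for PPAR targets, -0.091 to -0.0045 for coactivators and corepressors, -0.34 to 0.22 for 2-cell stage genes, 0.0038 to 0.18 for maternal transcripts and 0.11 to 1.29 for oviduct markers. Few counts limit Pparg, Nr1h3, Ppara, Rxrb and Ppargc1a.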
